A study of Mus musculus with 8 samples.

Results

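Here, mitochondrial ribosomal protein genes were the nuclear genes whose symbols begin with Mrps (small subunit) or Mrpl (large subunit) followed by a number. In the deposited gene table of mouse colonic organoids, every protein-coding gene with such a symbol was taken. This gave 78 genes of the 45777 in the table (21949 of them protein-coding), with 29 of the small and 49 of the large subunit. Subunits follow the symbols except where stated. Some ribosomal proteins have other symbols, and a few of the 78 genes encode proteins placed elsewhere. The study's title names IL-22, ulcerative colitis and the secreted lectin REG3A, and its mouse RNA sequencing compared organoids of 2 genotypes. KO organoids came from Reg3a ΔIEC mice, in which Villin-Cre, active in intestinal epithelium, deletes the floxed exons 2 to 4 of Reg3a (4 libraries, replicates 5 to 8). WT organoids came from Reg3a fl/fl mice, which carry the same floxed allele (4 libraries, replicates 13 to 16). The mice were male, aged 9 weeks, and the strain named in the protocols is C57BL/6J. Both kinds of organoid were grown from colonic crypts for at most 15 passages and collected 3 days after passage without treatment.

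The labels give 2 accounts of replication, 1 mouse per genotype in 4 wells and 3 mice per genotype in triplicate. The p-values thus rest on the variation among these 8 libraries, which may be technical only, and genotype cannot be told apart from mouse or organoid line. Reg3a had 0 counts in all 8 libraries, so the deleted gene could not check the labels. Library totals lay between 37182098 and 49256171 counts and did not separate the genotypes (two-sided exact permutation p = 0.571, n = 4 per genotype). All 8 intestinal epithelial markers were detected, at a summed 12900 to 13500 CPM (counts scaled to a common library size) in KO and 12300 to 13200 CPM in WT. By the edgeR test given below, 2 of the 8 were higher in KO and 0 lower. Fibroblast markers summed to at most 0.371 CPM in any library, with Col1a2, Dcn and Lum at 0 in all of them. Leukocyte markers summed to 0.851 to 10.9 CPM in KO and 0.511 to 0.911 CPM in WT, endothelial markers to at most 1.32 CPM, and glial and neuronal markers to at most 0.567 CPM.

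The mitochondrial ribosome translates the messenger RNAs of the mitochondrial genome, which encode core subunits of the respiratory chain. Its ribosomal RNAs are transcribed inside the organelle, whereas all of its proteins are encoded in the nucleus, made in the cytosol and imported. The small subunit binds the messenger RNA and decodes it. The large subunit joins the amino acids and feeds the new chain into the inner membrane. Some of its proteins descend from bacterial ribosomal proteins and others were added in mitochondria.

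Most of the genes taken by Mrps or Mrpl symbol stood at nearly the same level in both genotypes. The ribosomal RNAs and the ribosomal proteins with other symbols are not part of this set and are given further below. Of the 29 small subunit genes, 1 was lower in KO and 0 were higher. Of the 49 large subunit genes, 1 was lower and 0 were higher (edgeR quasi-likelihood test, adjusted p under 0.05 over all 14945 genes tested). Over all tested genes, 15.9% were called in either direction, 8.26% lower and 7.63% higher in KO. The genes called were Mrps28 and Mrpl52. Without adjustment for the number of genes, the small subunit had 1 gene lower and 1 higher at p under 0.05, and the large subunit 9 lower and 0 higher. The same unadjusted rule took 14.6% of all tested genes as lower and 14.1% as higher.

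The sizes of the differences were small. The median log2 fold change (KO minus WT) was -0.011 for the small subunit, with a range from -0.25 (Mrps28) to 0.14 (Mrps36). For the large subunit it was -0.033, with a range from -0.16 (Mrpl52) to 0.095 (Mrpl20). The median over all tested genes was -0.001. The log2 fold change was at most 0.1 in size for 60 of the 78 genes, against 7000 of all 14945. Each gene's 95% interval lay inside a 1.25-fold difference in either direction for 77 of the 78, and the exception was Mrps28. Over all tested genes 8218 had such an interval. Precision differed as well, since the median standard error (SE) was 0.0586 for the small subunit, 0.0517 for the large and 0.0717 over all tested genes. The fold change was below 0 for 17 of 29 small subunit genes and for 33 of 49 large subunit genes.

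**Figure D1:**
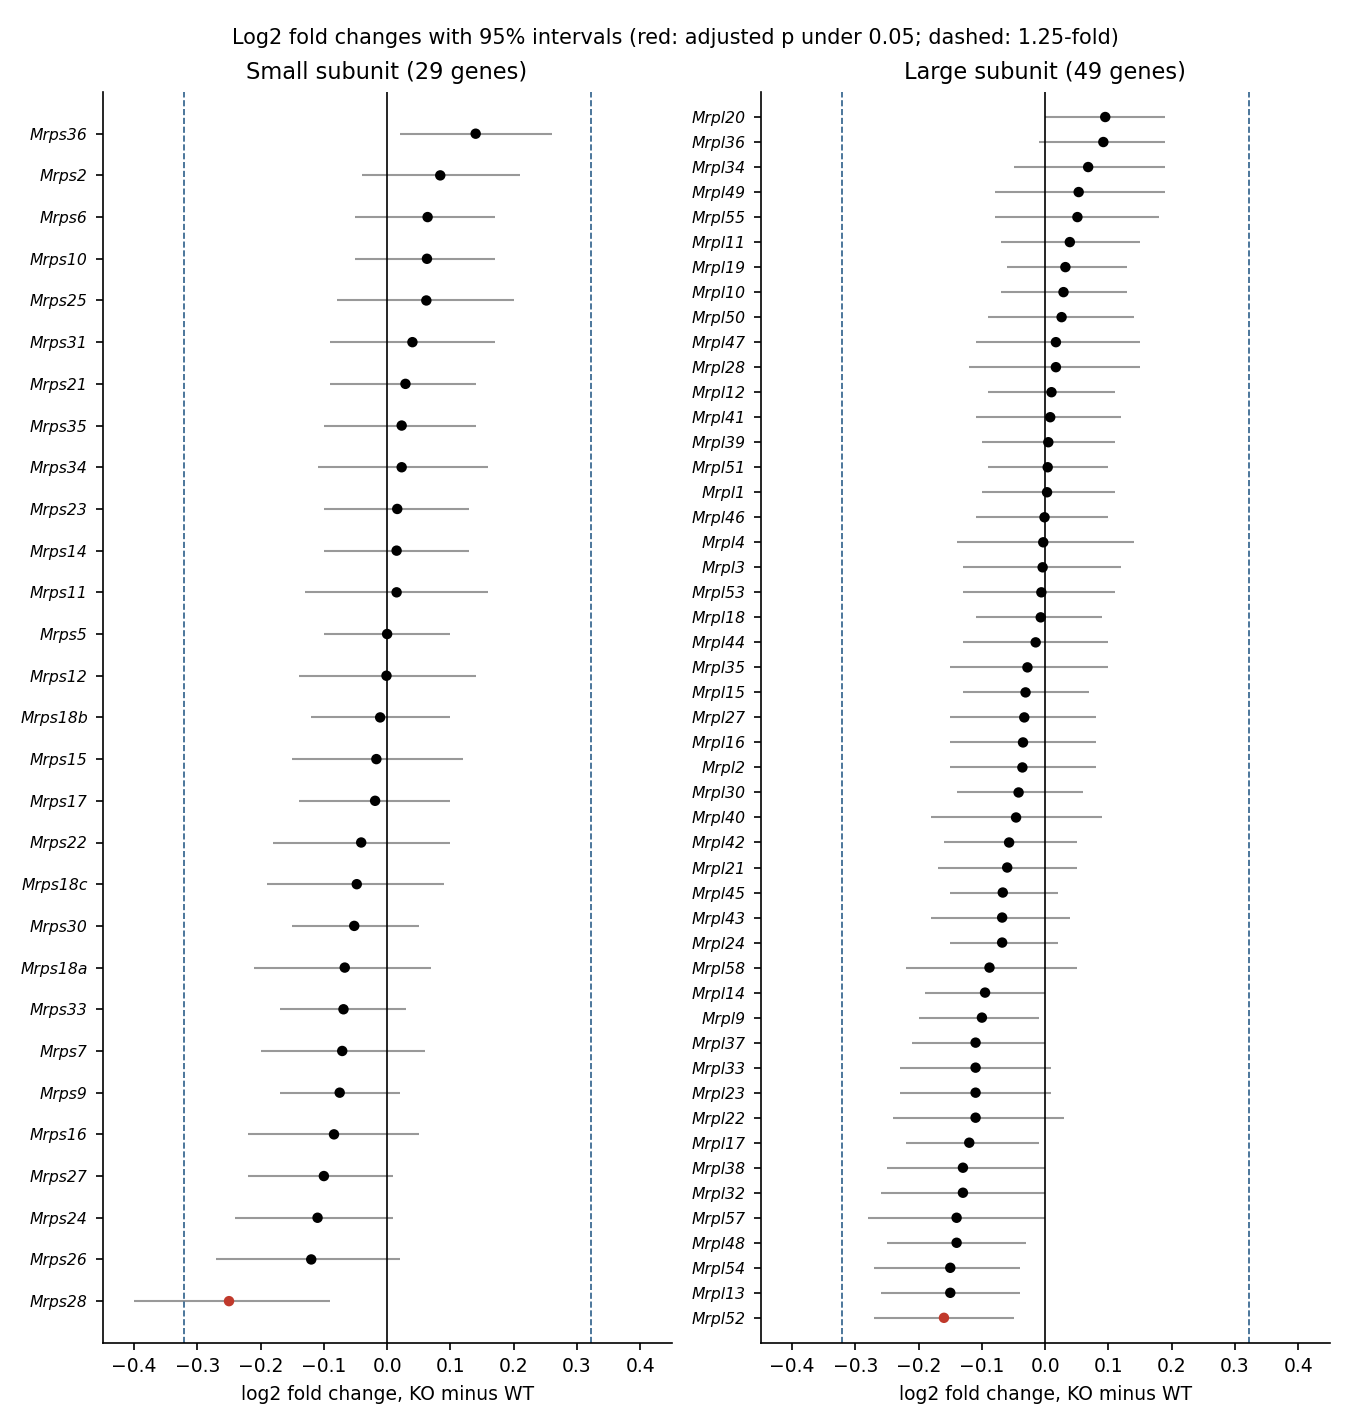
Log2 fold change of each gene (KO minus WT, horizontal axis) with its 95% interval, in panels for the 29 small and 49 large subunit genes, each sorted by fold change. Red marks an adjusted p under 0.05, which Mrps28 and Mrpl52 have, and the interval of Mrps28 is the only one that crosses a dashed line at a 1.25-fold difference.

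Mrps28 (NCBI Gene ID 66230, chromosome 3, 8802146 to 8923857, minus strand, GRCm38) encodes bS1m, a small subunit protein of the bacterial S1 family. Its level was 14.0, 15.7, 12.5 and 13.9 CPM in KO replicates 5, 6, 7 and 8, and 17.5, 16.0, 16.4 and 16.7 CPM in WT replicates 13, 14, 15 and 16. Every KO library lay below every WT library, and the nearest pair was KO replicate 6 and WT replicate 14. The means were 14.0 ± 1.30 in KO against 16.6 ± 0.666 CPM in WT (SD, n = 4). Mrps28 fell by 15.7% in KO, a log2 fold change of -0.25 ± 0.072 (SE, 95% interval -0.40 to -0.09, edgeR adjusted p = 0.0337). The counts behind these values were 592 to 790 per library. In bulk RNA, fewer cells of a type that expresses the gene and less of its RNA per cell cannot be told apart. The call was lost when KO replicate 5, 7 or 8 or WT replicate 13 or 16 was left out (edgeR adjusted p from 0.0597 to 0.106), while the log2 fold change stayed between -0.30 and -0.19 over all 8 omissions.

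Mrpl52 (NCBI Gene ID 68836, chromosome 14, 54426909 to 54429750, plus strand) encodes mL52, a large subunit protein found only in mitochondria. Its level was 37.7, 40.3, 38.2 and 36.9 CPM in KO replicates 5 to 8, and 44.3, 41.9, 40.5 and 45 CPM in WT replicates 13 to 16. All KO libraries lay below all WT libraries, though KO replicate 6 and WT replicate 15 nearly met. With means of 38.3 ± 1.44 in KO against 42.9 ± 2.09 CPM in WT (SD, n = 4), the gene fell by 10.7%. The log2 fold change was -0.16 ± 0.051 (SE, 95% interval from -0.27 to -0.05, edgeR adjusted p = 0.0429). Leaving out WT replicate 13, 14 or 16 or KO replicate 5, 7 or 8 ended the call, with edgeR adjusted p from 0.0525 to 0.143, while the log2 fold change stayed between -0.19 and -0.14 over all 8 omissions. Its upstream sequence is printed because Mrpl52 is the called gene for which RefSeq's promoter table (GRCm38.p6) has an entry. The 200 bases before its start site, chr14:54426709-54426908 on the plus strand, hold the core CCGGAAG bound by ETS family factors (read as CTTCCGG on the opposite strand, in capitals) at 47 bases before the start.
Mrpl52: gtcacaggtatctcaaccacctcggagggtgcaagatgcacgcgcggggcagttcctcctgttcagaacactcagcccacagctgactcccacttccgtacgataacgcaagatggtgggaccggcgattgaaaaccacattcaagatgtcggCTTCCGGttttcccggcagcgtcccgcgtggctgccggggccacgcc

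Markers of cell state differed between the genotypes alongside these values. The 4 absorptive colonocyte markers summed to 794 to 896 CPM in KO and 385 to 514 CPM in WT, with 3 of 4 higher. The 3 crypt stem cell markers summed to 37.8 to 43.5 CPM in KO and 54.4 to 60.3 CPM in WT, with 3 of 3 lower. The 4 proliferation markers summed to 743 to 776 CPM in KO and 844 to 1010 CPM in WT, with 3 of 4 lower. The 4 markers of distal or colonic epithelium summed to 2420 to 2530 CPM in KO and 1660 to 1780 CPM in WT, with 2 higher and 1 lower. The part of these markers in the levels of Mrps28 and Mrpl52 was not tested.

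Mrps36 had the highest fold change of all 78 genes and did not pass the test. Its product (NCBI Gene ID 66128, chromosome 13, 100735940 to 100744659, minus strand) was once counted as a small subunit protein and is now known as KGD4, a part of the 2-oxoglutarate dehydrogenase complex. KO replicates 5 to 8 gave 31.2, 35.6, 31.9 and 35.2 CPM, and WT replicates 13 to 16 gave 30.0, 30.5, 29.8 and 31.1 CPM. KO lay above WT in every library, but replicates 5 and 7 only just exceeded WT replicate 16. The means of 33.5 ± 2.22 and 30.4 ± 0.560 CPM (SD, n = 4) gave a log2 fold change of 0.14 ± 0.054 (SE) with an edgeR adjusted p of 0.0984. Processed copies of Mrps36 can take reads from it, and 1 such copy, Mrps36-ps1, held 85 to 154 counts. The window before its start site, chr13:100744660-100744859 on the minus strand, is printed below. It has no ETS core. Such a core was in only 11 of 26 small and 15 of 43 large subunit windows, so its absence does not set Mrps36 apart. The capitals mark a CCAAT box (as ATTGG on the opposite strand) and a pair of overlapping SP1 boxes, GGGCGG.
Mrps36: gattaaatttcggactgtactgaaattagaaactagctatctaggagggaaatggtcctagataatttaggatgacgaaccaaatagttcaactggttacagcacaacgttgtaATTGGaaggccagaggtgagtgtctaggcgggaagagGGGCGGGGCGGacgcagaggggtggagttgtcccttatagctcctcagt

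Mrpl20 (NCBI Gene ID 66448, chromosome 4, 155802878 to 155808831), which encodes bL20m, had the highest fold change of the large subunit. It stood at 28.5, 28.3, 29.4 and 29.4 CPM in KO replicates 5 to 8 and at 27.2, 27.5, 26.9 and 26.7 CPM in WT replicates 13 to 16. The KO libraries all lay above the WT libraries, by a narrow margin. The log2 fold change of 0.095 ± 0.046 (SE) did not pass (edgeR adjusted p = 0.193). Mrps36 and Mrpl20 were the 2 genes whose KO libraries all exceeded the WT libraries. In the opposite direction there were 5, Mrps28, Mrpl52, Mrps33, Mrpl14 and Mrpl48. Such separation was found for 9.91% of all tested genes with KO above WT and for 10.3% with KO below.

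**Figure D2:**
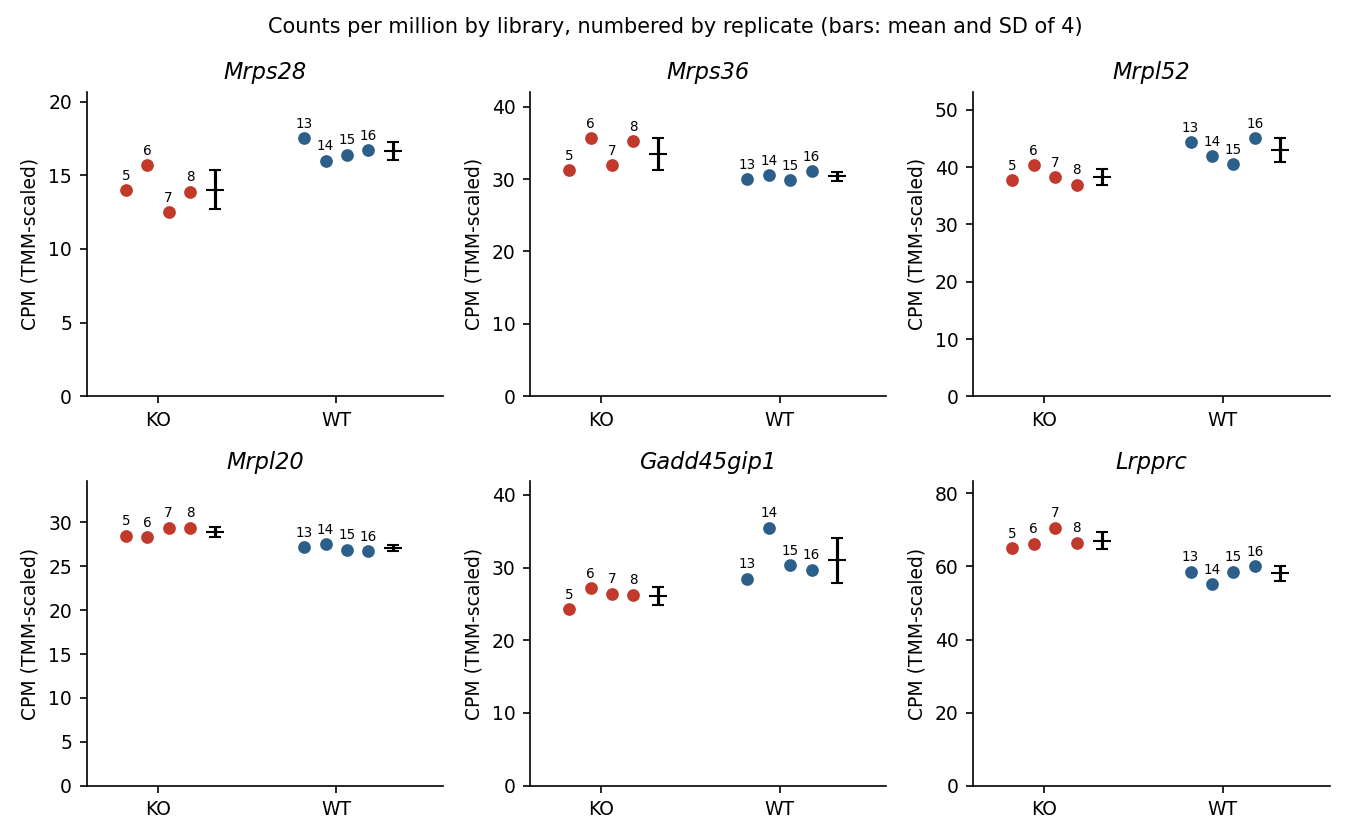
CPM scaled by the trimmed mean of M-values (vertical axis) in each of the 8 libraries, numbered by replicate. The panels show Mrps28, Mrps36, Mrpl52 and Mrpl20, and the partner genes Gadd45gip1 and Lrpprc. Bars give the mean and SD of 4 libraries, and in all 6 panels the KO and WT points do not overlap.

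Other small subunit genes showed little difference, core proteins of bacterial descent among them. Mrps12, whose product uS12m lies at the decoding site, was at 16.5 ± 0.645 in KO against 16.5 ± 1.12 CPM in WT (SD, n = 4). Mrps11 (uS11m), with the fewest counts of the small subunit (at least 367 per library), was at 10.6 ± 0.286 and 10.5 ± 0.595 CPM. Mrps5 (uS5m) was at 51.2 ± 2.05 in KO against 51.2 ± 1.39 CPM in WT. These groups overlapped for all 3 genes. Proteins specific to mitochondria included Mrps27 (mS27, a protein with pentatricopeptide repeats), at 38.6 ± 2.29 in KO against 41.4 ± 1.42 CPM in WT, with a log2 fold change of -0.10 ± 0.053 (SE) with an edgeR adjusted p of 0.227. Mrps33 (mS33) was at 28.6 ± 0.445 and 30.0 ± 0.745 CPM, with separate libraries and an edgeR adjusted p of 0.364. Mrps22 (mS22) was at 20.7 ± 1.88 and 21.2 ± 0.780 CPM.

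The 3 genes Mrps18a, Mrps18b and Mrps18c descend from bacterial S18 and share a name but not a place in the ribosome. Mrps18c encodes bS18m in the S18 position, Mrps18b encodes mS40 of the small subunit, and Mrps18a encodes mL66, which sits in the large subunit. Mrps18c was measured at 20.6, 21.6, 23.2 and 20.0 CPM in KO replicates 5 to 8 and at 21.3, 21.6, 24.3 and 21.1 CPM in WT replicates 13 to 16. KO replicate 7 and WT replicate 15 were the high libraries, and the genotypes overlapped. Mrps18b was at 38.8 ± 1.90 in KO against 39.0 ± 1.44 CPM in WT, and Mrps18a at 28.0 ± 1.91 and 29.3 ± 2.09 CPM (SD, n = 4). None of the 3 passed the test, with edgeR adjusted p of 0.689 for Mrps18c, 0.925 for Mrps18b and 0.556 for Mrps18a. On the scale of the authors' TPM, which allows for transcript length, Mrps18c was the highest of the 3 at 85.6 (80.3 to 97.1 over libraries), above Mrps18b at 68.4 (65.4 to 73.0) and Mrps18a at 65.4 (58.8 to 72.0). The last 2 ranges overlap. The window of Mrps18a, chr17:46110786-46110985 on the plus strand, is shown as an example of a member with both a CCAAT box and an ETS core, marked in capitals. It ends 19 bases before the start site that RefSeq gives.
Mrps18a: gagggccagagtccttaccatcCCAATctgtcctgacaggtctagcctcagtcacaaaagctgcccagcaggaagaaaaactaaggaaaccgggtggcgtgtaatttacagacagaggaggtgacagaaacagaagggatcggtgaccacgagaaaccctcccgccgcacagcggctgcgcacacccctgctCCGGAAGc

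In the large subunit, the stalk that recruits translation factors differed little between genotypes. Mrpl12 (bL12m), which is also known to bind the mitochondrial RNA polymerase, was at 132, 134, 145 and 137 CPM in KO replicates 5 to 8 and at 128, 134, 141 and 141 CPM in WT replicates 13 to 16. The groups overlapped throughout, and the log2 fold change was 0.010 with a 95% interval from -0.09 to 0.11. The stalk proteins Mrpl10 and Mrpl11 had log2 fold changes of 0.029 ± 0.046 and 0.039 ± 0.052 (SE). Mrpl2, Mrpl3 and Mrpl4, which belong to the core of the subunit, had log2 fold changes of -0.036, -0.004 and -0.003. Mrpl51 (mL51) was at 63.1 ± 1.91 in KO against 63.0 ± 1.25 CPM in WT, with a 95% interval of its log2 fold change from -0.09 to 0.10.

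Lower point estimates in the large subunit came mostly from genes that missed the threshold. Among proteins around the exit of the nascent chain, Mrpl22 was at 20.8 ± 1.56 in KO against 22.4 ± 0.942 CPM in WT, Mrpl23 at 30.3 ± 1.68 and 32.7 ± 1.55 CPM, and Mrpl24 at 98.3 ± 1.71 and 103 ± 2.54 CPM (SD, n = 4). Mrpl45, which attaches the ribosome to the inner membrane at that exit, was at 82.3 ± 2.07 and 86.2 ± 2.00 CPM. Their log2 fold changes were -0.11, -0.11, -0.068 and -0.067, and none passed. Mrpl47 (uL29m), also at the exit, was at 20.3 ± 0.648 in KO against 20.0 ± 1.36 CPM in WT, with a log2 fold change of 0.017. In the central protuberance, which contacts the small subunit, Mrpl48 (mL48) was at 36.3, 36.0, 34.7 and 34.9 CPM in KO replicates 5 to 8 and at 37.5, 42.2, 37.9 and 38.5 CPM in WT replicates 13 to 16. Exons of Mrpl48 overlap those of Rab6a on the other strand. Its libraries were separate, with KO below, and its log2 fold change was -0.14 ± 0.051 (SE) with an edgeR adjusted p of 0.0826. Other proteins of that region were Mrpl38 at -0.13 ± 0.058, Mrpl40 at -0.046 ± 0.062 and Mrpl46 at -0.001 ± 0.049 (log2 fold change and SE).

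A further 3 large subunit genes had log2 fold changes near that of Mrpl52. Mrpl13 (uL13m) was at 35.2 ± 1.58 in KO against 38.9 ± 1.61 CPM in WT (edgeR adjusted p = 0.0691), and Mrpl54 (mL54) at 42.1 ± 2.04 and 46.8 ± 2.42 CPM (edgeR adjusted p = 0.0720). Mrpl57 (mL63) was at 25.2 ± 1.15 and 27.8 ± 2.25 CPM (edgeR adjusted p = 0.162). In each of these the genotypes overlapped in at least 1 library. The count of lower large subunit genes depended on WT replicate 15: without it, 4 were called, Mrpl17, Mrpl38, Mrpl52 and Mrpl54, and leaving out KO replicate 5, 7 or 8 or WT replicate 13, 14 or 16 gave 0. At the other end, Mrpl36 (bL36m) was at 38.5 ± 1.19 in KO against 36.2 ± 1.14 CPM in WT, with a log2 fold change of 0.092 ± 0.047 (SE) with an edgeR adjusted p of 0.219.

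The genes were also grouped by whether their proteins were classed with a bacterial family or as specific to mitochondria. Of 16 small subunit genes of bacterial families, 1 was lower (Mrps28) and the median log2 fold change was -0.009. The 10 small subunit proteins specific to mitochondria had 0 called (0 in either direction at an unadjusted p under 0.05, edgeR) and a median of 0.003. In the large subunit, the 30 genes of bacterial families had 0 called (3 lower and 0 higher at an unadjusted p under 0.05, edgeR) and a median of -0.029, and the 21 specific to mitochondria had 1 lower (Mrpl52; 6 lower and 0 higher at an unadjusted p under 0.05) and a median of -0.057. For this grouping the proteins were placed where ribosome structures have them, so Mrps18a and Mrps30 counted with the large subunit and Mrps36 was left out. Mrps18a and Mrps18b, though descended from bacterial S18, were classed as specific to mitochondria, so the groups do not follow descent alone. Over all tested genes, 8.26% were called lower and 7.63% higher. At an unadjusted p under 0.05 (edgeR) the shares were 14.6% and 14.1%. The differences between these groups were not tested.

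The summed level of the large subunit genes was slightly lower in KO. It was 2133, 2157, 2143 and 2103 CPM in KO replicates 5 to 8 and 2188, 2229, 2160 and 2201 CPM in WT replicates 13 to 16. No KO library reached a WT library, but KO replicate 6 and WT replicate 15 came within a few CPM of each other. The means were 2134 ± 22.9 and 2194 ± 28.7 CPM (SD, n = 4). For the small subunit, KO replicates 5 to 8 summed to 978.6, 991.0, 966.3 and 966.8 CPM and WT replicates 13 to 16 to 955.7, 999.7, 978.0 and 1007 CPM, with full overlap. WT replicate 13 was the lowest and WT replicate 16 the highest of all libraries for the small subunit. On the TPM scale the sums were 3728 to 3803 in KO and 3805 to 3822 in WT for the large subunit, and 1836 to 1854 in KO and 1776 to 1848 in WT for the small. Abundant genes weigh most in such sums. The median log2 deviation of large subunit genes from their own means overlapped between genotypes. It ran from -0.034 to -0.001 over the KO libraries and from -0.013 to 0.048 over the WT libraries. No test was run on these sums and medians.

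**Figure D3:**
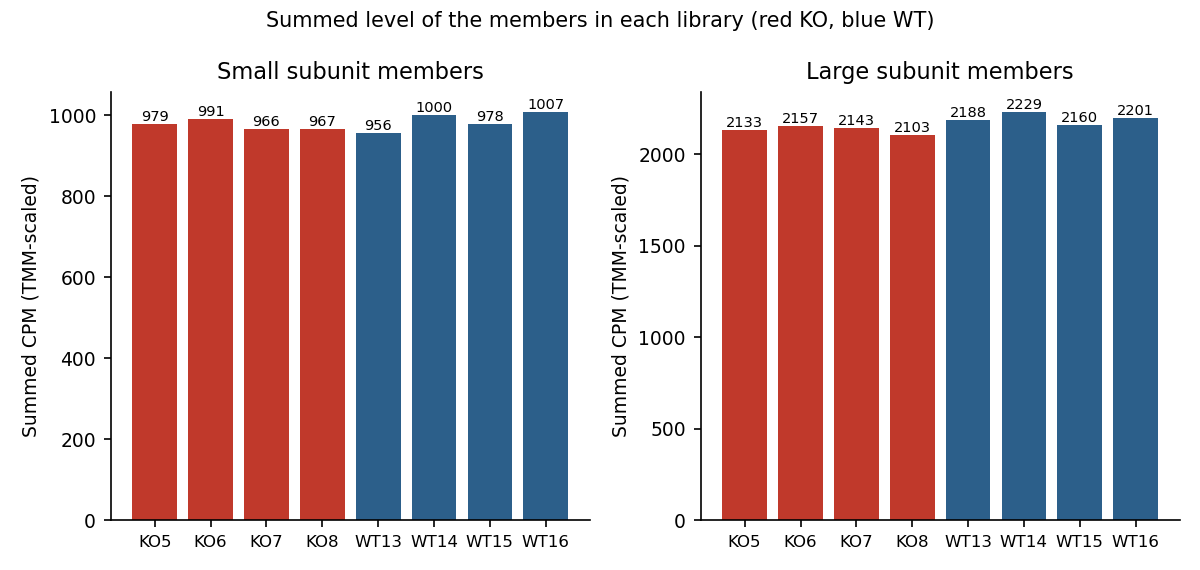
Summed CPM (vertical axis, from 0) of the 29 small and 49 large subunit genes in each library, with KO in red and WT in blue. The small subunit bars overlap between genotypes, and the large subunit bars run from 2103 to 2157 in KO and from 2160 to 2229 in WT.

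Replicates of 1 genotype were close to each other. The coefficient of variation across the 4 libraries of a genotype had a median of 4.17% in KO and 6.45% in WT for the small subunit, and of 3.20% and 4.73% for the large subunit. The most variable genes were Mrps28 in KO (9.25%) and Mrps25 in WT (9.66%) among small subunit genes, and Mrpl22 in KO (7.52%) and Mrpl4 in WT (9.35%) among large subunit genes. KO replicate 8 was the lowest KO library for 30 of the 78 genes, and KO replicate 6 was the highest for 30. In WT, replicate 15 was the lowest for 27 and replicate 16 the highest for 26.

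Levels differed far more between genes of the ribosome than between genotypes. In the authors' TPM, averaged over all 8 libraries, small subunit genes ran from 10.5 (Mrps25) to 189 (Mrps21), an 18-fold range with a median of 56.8. Large subunit genes ran from 13.8 (Mrpl17) to 275 (Mrpl12), a 20.0-fold range with a median of 66.5. CPM, which does not allow for length, gave narrower ranges. Gene means ran from 10.5 to 59.9 CPM in the small and from 17.3 to 136 CPM in the large subunit. The order of genes also depends on the measure. Mrpl12 was the highest by a clear margin, at 255 to 299 TPM over the libraries. Mrpl52 followed at 195 (181 to 211) and Mrpl42 (mL42) at 170 (159 to 179). The ranges of Mrpl42, Mrpl30, Mrpl33 and Mrpl24 overlapped, so their order is not resolved. Among the least abundant, Mrpl41 (mL41) at 14.1 (13.8 to 14.6) and Mrpl17 (bL17m) at 13.8 (13.1 to 14.9) could not be ordered.

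The most abundant small subunit genes did not differ between genotypes beyond their spread. Mrps21 (bS21m) was at 189 TPM (174 to 198) and 46.6 ± 0.994 CPM in KO against 45.7 ± 3.10 CPM in WT. Mrps6 (bS6m) was at 126 TPM (116 to 131), and Mrps16 (bS16m) at 106 TPM (99.3 to 118). Their log2 fold changes were 0.029 for Mrps21, 0.064 for Mrps6 and -0.084 for Mrps16. The least abundant, Mrps25 (mS25) at 10.5 TPM and Mrps11 at 19.9 TPM, had log2 fold changes of 0.062 ± 0.066 and 0.015 ± 0.069 (SE). Among the large subunit extremes, Mrpl42 was at 56.7 ± 2.59 in KO against 59.0 ± 2.51 CPM in WT, Mrpl41 at 17.4 ± 0.331 and 17.3 ± 0.410 CPM, and Mrpl17 at 44.8 ± 0.894 and 48.6 ± 2.70 CPM (SD, n = 4).

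**Figure D4:**
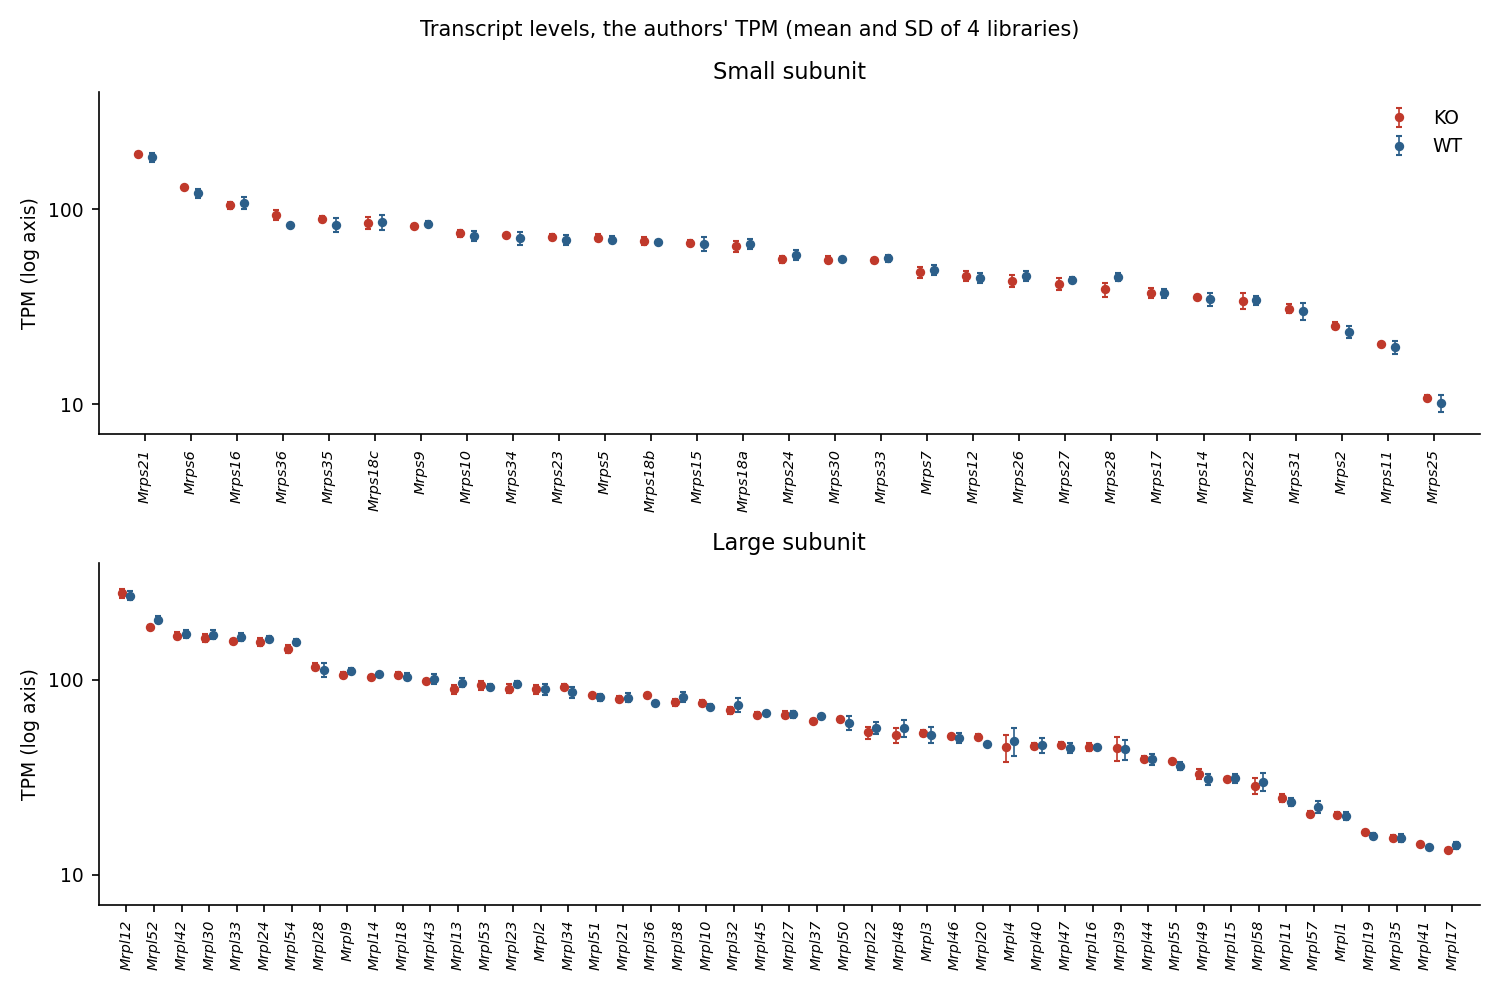
The authors' TPM (vertical log axis) for every small subunit gene (upper panel) and large subunit gene (lower panel), ordered by level, as mean and SD of 4 libraries in KO and WT. The pairs of points sit almost together across a range from 10.5 to 189 TPM in the small and from 13.8 to 275 TPM in the large subunit.

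Factors that build and serve the mitochondrial ribosome were described from a list of 47 genes found in the table. Of these, 1 was higher and 1 lower in KO by edgeR, against 7.63% higher and 8.26% lower of all tested genes. The log2 fold changes of the 47 genes had a median of 0.009. The lower gene was Gadd45gip1 (NCBI Gene ID 102060), which encodes the large subunit protein mL64. It stood at 24.3, 27.2, 26.4 and 26.3 CPM in KO replicates 5 to 8 and at 28.5, 35.5, 30.3 and 29.7 CPM in WT replicates 13 to 16, with no overlap and WT replicate 14 well above the rest. The log2 fold change was -0.25 ± 0.069 (SE, 95% interval -0.40 to -0.11, edgeR adjusted p = 0.0235), and the call was lost without KO replicate 5, 7 or 8 or WT replicate 14 (edgeR adjusted p from 0.0548 to 0.0859), with log2 fold changes from -0.29 to -0.18 over all 8 omissions. Among the other ribosomal proteins on the list, Dap3 (mS29, a GTP-binding protein) had a log2 fold change of -0.053, Ptcd3 (mS39) of 0.10, Chchd1 (mS37) of -0.10 and Aurkaip1 (mS38) of -0.014. None of these 4 passed.

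The higher gene was Lrpprc (NCBI Gene ID 72416), whose protein keeps mitochondrial messenger RNAs stable. Its KO libraries stood at 65.0, 66.2, 70.6 and 66.5 CPM and its WT libraries at 58.5, 55.2, 58.6 and 60.0 CPM. KO lay above WT throughout, with a log2 fold change of 0.21 ± 0.046 (SE, 95% interval 0.11 to 0.31, edgeR adjusted p = 0.00728). Slirp, the protein partner of Lrpprc, was at 20.7 ± 1.14 in KO against 20.6 ± 0.768 CPM in WT. Of 15 translation factors and related genes, Lrpprc was the 1 called. At an unadjusted p under 0.05 (edgeR), 4 of the 15 were higher and 0 lower, against 14.1% and 14.6% of all tested genes. Mtfmt, which formylates the initiator methionine, had a log2 fold change of 0.19 ± 0.062 (SE) with an edgeR adjusted p of 0.0541, and the elongation factors Tufm and Gfm1 had 0.028 and 0.13. Of 27 genes for assembly and RNA modification, 0 were called (1 higher and 1 lower at an unadjusted p under 0.05, edgeR). The protease subunit Afg3l2, which matures a large subunit protein, was at 247 ± 5.53 in KO against 230 ± 5.01 CPM in WT (edgeR adjusted p = 0.0642).

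Other components of translation are given for scale. The RNA components of the mitochondrial ribosome are transcribed in the organelle and, in libraries selected for polyadenylated RNA, reflect only the molecules captured. The large ribosomal RNA, mt-Rnr2, was higher in KO at 600 ± 35.5 CPM against 476 ± 66.1 CPM, with a log2 fold change of 0.33 ± 0.082 (SE) with an edgeR adjusted p of 0.0142. The small one, mt-Rnr1, was at 465 ± 35.3 and 400 ± 45.4 CPM (SD, n = 4) and did not pass (edgeR adjusted p = 0.0686). Of the transcripts captured for 13 proteins encoded by the mitochondrial genome, 10 were higher and 0 lower in KO, and their median log2 fold change was 0.48. Over all tested genes, 7.63% were called higher and 8.26% lower. A list of cytosolic ribosomal protein genes was taken by symbol, as Rpl or Rps followed by a number. This rule leaves out genes such as Fau and can also take others such as the Rps6k kinases, so the list is approximate. Of its 93 genes tested, 65 were lower and 0 higher, with a median of -0.20. The mitochondrial ribosomal protein genes, at 2 of 78 called and a median of -0.024, were closer to 0 than either list, and the difference between the lists was not tested.

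**Figure D5:**
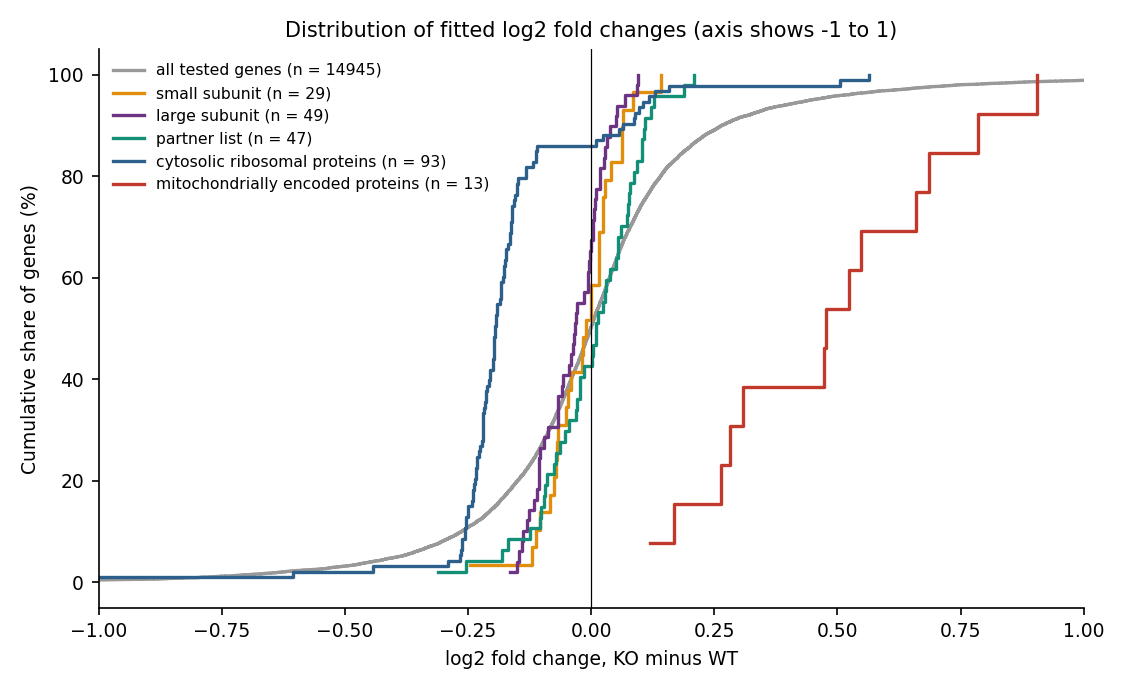
Cumulative share of genes (vertical axis, percent) against log2 fold change (KO minus WT) for all tested genes, the 2 subunits, the list of 47 partner genes, cytosolic ribosomal proteins (taken by Rpl and Rps symbols) and mitochondrially encoded proteins. The curves of both subunits rise steeply near 0, while the cytosolic list has a median of -0.20 and mitochondrially encoded proteins one of 0.48.

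Many of these genes start close to a neighbour on the opposite strand. A gene was called head to head when a protein-coding gene on the opposite strand had its 5′ end within 1000 bases in the GENCODE M21 annotation of GRCm38. This was so for 9 of 29 small subunit genes (31.0%) and 24 of 49 large subunit genes (49%). Outside the family, 1982 of 12217 tested protein-coding genes (16.2%) were head to head, and of the cytosolic list taken by symbol 17 of 92 (18.5%). Several neighbours also serve mitochondria, such as Ndufs6 beside Mrpl36 and Ndufb5 beside Mrpl47, both of respiratory complex I, the DNA helicase gene Twnk beside Mrpl43, and the seryl-tRNA synthetase gene Sars2 beside Mrps12. The only members within 100 kb of each other were Mrps11 and Mrpl46 on chromosome 7, which face away from each other with 41 bases between their RefSeq spans. In GENCODE an alternative first exon of Mrpl46 overlaps Mrps11 on the opposite strand, so reads there cannot be assigned with certainty. The stretch of that interval outside all GENCODE exons, chr7:78783090-78783118, is printed on the plus strand because it lies between a small and a large subunit gene. This stretch of 29 bases holds none of the motifs described below. The longer RefSeq promoter windows of the pair do hold some, YY1 and SP1 for Mrps11 and SP1 and TATAAA for Mrpl46.
Mrps11: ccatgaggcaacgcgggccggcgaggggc

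Of the 33 neighbours, among them the members Mrps11 and Mrpl46, 31 were tested. Of these, 2 were lower and 0 higher in KO, against 8.26% lower and 7.63% higher of all tested genes. Ncapd2, a condensin subunit gene that starts 100 bases from Mrpl51, was at 103 ± 4.86 in KO against 129 ± 7.87 CPM in WT (SD, n = 4). With -0.32 ± 0.0517 (SE) as log2 fold change it passed with an edgeR adjusted p of 9.0e-04. Mrpl51 on the other side had a log2 fold change of 0.004. Mtbp, whose protein binds MDM2, lies beside Mrpl13 and was at 8.57 ± 0.390 in KO against 10.9 ± 0.452 CPM in WT (log2 fold change -0.35 ± 0.0705, SE, edgeR adjusted p = 0.00412), while Mrpl13 had -0.15. Exons of Mtbp and Mrpl13 overlap in the annotation, so reads there cannot be assigned with certainty. Fau, a cytosolic ribosomal protein gene 59 bases from Mrpl49, had a log2 fold change of -0.15 (edgeR adjusted p = 0.0613) and Mrpl49 one of 0.053. The difference between a member and its neighbour was not tested.

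RefSeq promoter windows of 300 bases (250 before and 50 after the start) were found for 69 of the 78 genes, 26 of the small and 43 of the large subunit. Both strands were searched for 6 short motifs. The ETS core CCGGAAG was in 11 of 26 small subunit windows (42.3%) and 15 of 43 large subunit windows (34.9%), against 2143 of 11074 windows of tested genes (19.4%) and 2683 of all 27025 windows (9.93%). The core was in 33.8% of windows of the cytosolic list taken by symbol. AAGATGGCG, bound by YY1, was in 15.4% of small and 9.30% of large subunit windows, against 3.39% for tested genes. The consensus palindrome of NRF1, a factor known for nuclear genes of mitochondria, was in 0 of 26 small and 3 of 43 large subunit windows (Mrpl9, Mrpl32 and Mrpl39), against 2.17% for tested genes. GGGCGG (SP1) was in 65.4% of small and 39.5% of large subunit windows (tested genes 65.9%), CCAAT in 46.2% and 34.9% (42.9%), and TATAAA in 7.69% and 6.98% (9.66%). The median GC content was 59.2% for small and 57.7% for large subunit windows and 60.3% for tested genes. A match describes the letters in a window and not binding. Mrps22 is printed because its ETS core lies 11 bases before the start site, closest to the start of those shown (chr9:98601680-98601879, minus strand). The capitals mark the SP1 box and the ETS core.
Mrps22: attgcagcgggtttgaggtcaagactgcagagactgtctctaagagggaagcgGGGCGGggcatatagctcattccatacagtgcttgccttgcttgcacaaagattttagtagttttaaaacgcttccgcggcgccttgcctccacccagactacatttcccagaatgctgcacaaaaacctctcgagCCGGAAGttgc

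The 78 genes lay on 17 chromosomes, with 11 on chromosome 11, 8 on chromosome 17 and 7 on chromosome 6. Exons of 28 genes overlapped a gene on the opposite strand, and those of 8 a gene on the same strand, in GENCODE M21. For 45 genes, among them Mrps28, Mrpl52, Mrps36 and Mrpl20, there was no such overlap.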

How the data were processed

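RNA sequencing of 8 colonic organoid libraries was analysed from the deposited gene table. Per the labels' protocols, stranded mRNA libraries were made from 1 µg of RNA with an integrity number above 7.0. The deposited counts are whole numbers per gene, not normalized. The submitters' processing notes name GRCm38 with HTSeq, Bowtie2, TopHat and TopHat2 and state neither versions nor roles. Use of strand in counting is not stated. More genes had 2 counts than 1 in all 8 libraries, so both mates of a pair may have been counted. The authors' TPM, scaled for transcript length and depth, served only to compare levels between genes, and the authors' FPKM were not used. Library totals of 37182098 to 49256171 counts gave at least 367 counts for every member in every library.

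The quasi-likelihood test of edgeR 4.0.16 (R 4.3.3) was run over the whole table after filterByExpr and TMM scaling, at a Benjamini-Hochberg adjusted p of 0.05. All 78 members passed the filter. The 95% intervals are per gene and not adjusted. The script was tested on simulated data. CPM is TMM-scaled and errors are the SD of 4 libraries. Alternatives were other scalings, DESeq2 1.42.0, limma-voom (limma 3.58.1), other count filters, an adjusted p of 0.01, leaving out each library and, chosen after seeing the data, placing proteins by ribosome structure. The members, partner list, markers and groupings were chosen with earlier results of these data known. The naming rule took called members, the 3 most and 2 least abundant of each subunit, those with the extreme fold changes, the Mrps18 paralogs and up to 6 called partners. Other genes were named after their values were seen. Of 51 partner symbols 47 were matched. Python 3.11.15 with matplotlib 3.10.9, pandas 2.3.3 and numpy 2.4.6 made tables and plots.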

Additional observations from a re-analysis of the deposited data

Results flagged for a closer look

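Of 46 groups of 4 libraries examined, 1 held a library far from the others. Mrps18c in WT replicate 15 was at 24.3 CPM, while the other WT libraries lay between 21.1 and 21.6 CPM. The gap to the nearest of them was a share of 0.862 of the whole range, above Dixon's 95% critical value for groups of 4. Chance flags about 1 in 20 such groups.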

How the results depend on the processing

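The calls of Mrps28 and Mrpl52 were kept under DESeq2 size factors, upper quartile scaling, library totals alone, the DESeq2 Wald test, limma-voom and a filter of at least 1 CPM in 4 libraries. With no filter on low counts, which adjusts over more genes, and at an adjusted p under 0.01, the lower calls were 0 in the small and 0 in the large subunit (edgeR). Leaving out each library gave 0 to 1 lower in the small and 0 to 4 in the large subunit, and 0 higher in both. The median log2 fold change then ran from -0.036 (without WT replicate 13) to 0.0 for the small and from -0.043 to -0.023 for the large subunit. Placing proteins by ribosome structure, chosen after seeing the data, left 1 lower in each. Over all genes, an adjusted p under 0.01 gave 562 higher and 597 lower, and leave-one-out 696 (without KO replicate 8) to 1386 higher and 724 to 1404 lower. On the partner list, higher calls were 2 with the DESeq2 Wald test and 1 to 4 under leave-one-out, and lower calls 0 at 0.01 and 0 to 3 under leave-one-out. Among the 18 genes named by rule, point estimates crossed 0 for 6, each when 1 library was left out, and none of the 6 was called: Mrps21 ran from -0.01 to 0.071, Mrps11 from -0.009 (also -0.003) to 0.053, Mrpl12 from -0.019 (also -0.016) to 0.029, Mrpl41 from -0.008 (also -0.001) to 0.021, Mrps18b from -0.04 to 0.017 (also 0.008 and 0.003) and Mrps18c from -0.091 to 0.002. Apart from omissions and thresholds, the cause of these shifts was not tested. No paired analysis was possible because the genotypes share no replicate number. The scalings moved the median of all genes to between -0.001 and 0.003.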
